A study of Homo sapiens with 4 samples.

Results

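The BCL2 family genes described here were 10 genes taken by symbol from the count and FPKM tables of the series. All 10 were found among the 15357 genes listed, and all 10 passed the filter on low counts that left 11955 genes for testing. They comprised 3 pro-survival members (BCL2, BCL2L1 and MCL1), 2 effector members (BAX and BAK1) and 5 BH3-only members (BBC3, BMF, PMAIP1, BID and BCL2L11). RNA was sequenced from RKO, an established human colon cancer line, after stable infection with lentivirus. The vector group (2 samples) carried a control lentivirus, and the shCHD7_2 group (2 samples) carried an shRNA against CHD7, a gene for an ATP-dependent chromatin remodeller. The comparison asked which transcripts change when CHD7 is depleted. A single CHD7 shRNA was sequenced, so loss of CHD7 and any other effect of that shRNA cannot be told apart.

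The BCL2 family sets the threshold for apoptosis at the outer mitochondrial membrane. The effectors BAX and BAK1 form pores in that membrane and release cytochrome c, which activates caspases. Pro-survival members bind and restrain the effectors, and BH3-only members either occupy the pro-survival proteins or activate the effectors directly. Several family genes, BBC3 (PUMA), PMAIP1 (NOXA) and BAX among them, are known p53 targets, whereas BCL2L11 (BIM) and BMF are known to respond to other stresses, such as growth factor withdrawal or loss of attachment. These proteins are also regulated by splicing, phosphorylation and degradation, which gene-level mRNA values do not show.

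The estimated counts summed to between 15734679 and 16068650 per sample, and the 10 most abundant genes took 5.16% to 5.59% of each total. CHD7 had 1326 and 1436 reads in the vector samples and 890 and 800 in the shCHD7_2 samples, which matched the labels. Of 12 colon epithelium markers, 9 were listed, and the 4 at or above 1 FPKM (EPCAM, KRT8, KRT18 and CDX2) summed with the others to between 75.4 and 90.3 FPKM per sample. KRT20, CDH1, CDH17, LGALS4 and GPA33 were near 0, so several defining markers of differentiated colon epithelium were at most barely detected. The 3 fibroblast markers listed summed to at most 0.13 FPKM, and of 4 leukocyte markers listed only CD68 exceeded 1 FPKM. CD68 was abundant, at 529.46 and 495.03 FPKM in the vector samples and 601.95 and 611.1 FPKM in the shCHD7_2 samples. Its log2 fold change was 0.20 (adjusted p = 0.0624 by edgeR). The other 3 leukocyte markers listed summed to at most 0.36 FPKM. In bulk RNA, fewer cells with a transcript and less of it per cell cannot be told apart. Nothing in the labels says that the samples of a group came from separate cultures, so the p-values measure only the spread between these samples, which may be technical.

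Upstream sequence is shown for the 4 members whose counts differed at an adjusted p under 0.05 (BCL2L1, BAX, BBC3 and BMF, described in turn further on). Each run, read 5′ to 3′ on the gene's strand, ends before both the RefSeq start (GRCh38.p14) and the GENCODE 29 gene start, and covers the most upstream start listed. The coordinates are chr20:31723990-31724213 on the minus strand for BCL2L1, chr19:48954625-48954814 on the plus strand for BAX, chr19:47232767-47232917 on the minus strand for BBC3 and chr15:40108893-40109129 on the minus strand for BMF. Capitals mark the E-box CACGTG and the CCAAT box, the latter also as ATTGG on the other strand.
BCL2L1: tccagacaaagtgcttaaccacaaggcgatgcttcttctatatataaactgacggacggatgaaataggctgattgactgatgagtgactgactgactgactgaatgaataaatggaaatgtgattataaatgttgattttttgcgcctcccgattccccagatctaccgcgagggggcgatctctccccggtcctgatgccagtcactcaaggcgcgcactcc
BAX: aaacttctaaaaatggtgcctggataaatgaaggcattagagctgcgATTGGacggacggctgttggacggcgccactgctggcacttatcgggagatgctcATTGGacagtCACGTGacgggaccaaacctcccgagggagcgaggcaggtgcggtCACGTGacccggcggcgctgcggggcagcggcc
BBC3: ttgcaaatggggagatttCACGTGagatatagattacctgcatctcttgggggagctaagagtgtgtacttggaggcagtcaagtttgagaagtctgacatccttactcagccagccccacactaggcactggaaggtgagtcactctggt
BMF: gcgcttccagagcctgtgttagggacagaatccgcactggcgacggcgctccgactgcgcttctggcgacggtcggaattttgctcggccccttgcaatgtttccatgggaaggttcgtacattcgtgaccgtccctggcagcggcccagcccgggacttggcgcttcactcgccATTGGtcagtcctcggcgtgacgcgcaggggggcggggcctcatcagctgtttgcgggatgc

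In the whole 250 bases before the start, of which the runs above are the part outside annotated exons, 4 motifs were searched on both strands: the E-box CACGTG, the FOXO core GTAAACA, the p53 half-site and the CCAAT box. RefSeq promoters were matched for 9 of the 10 members, with 15 starts among them. The E-box was found at 4 of the 15 starts (1 of BAX, 1 of BBC3 and 2 of the 5 of BID), against 6.34% of all 35116 promoters listed. The windows of these 2 BID starts overlap and may hold the same site, so the starts are not independent. By gene, the E-box was found in 3 of the 9 members matched. BAX held 4 copies, a number reached by 5 promoters in the list (0.0142%), and 2 of the copies lie in the printed run. The CCAAT box was found at 5 of the 15 starts (1 each of BAX, BAK1, BBC3, BMF and BCL2L11), against 32% of promoters. The p53 half-site was found at 1 start, that of BAK1, against 5.57% of promoters, and the FOXO core at 1 start, that of BCL2L11, against 2.98%. No matches overlapped in the windows of the members. A match is a stretch of letters and not evidence of binding, and sites further away were not searched.

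Pro-survival members held 68.6% to 71.4% of the summed FPKM of the family in every sample. In the main edgeR test 4 members rose after CHD7 knockdown (adjusted p under 0.05), with at least 1 in every class. By the same test 4.94% of all genes passed as higher and 11.5% in either direction. The spread of the passing members over the classes was not tested. Among the members, only BCL2L1 and BAX passed with DESeq2, and only BCL2L1 with edgeR without the filter on low counts. In the vector samples the mean level per length ran from 276 ± 3.76 FPKM (SD, n = 2) for MCL1 through BCL2L1, BAX, BAK1, BID, PMAIP1, BBC3, BCL2L11 and BCL2 to 0.42 ± 0.0566 FPKM (SD, n = 2) for BMF. No neighbours in that order overlapped between samples. In the shCHD7_2 samples the order of the members was the same, but PMAIP1 and BBC3 overlapped.

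**Figure D1:**
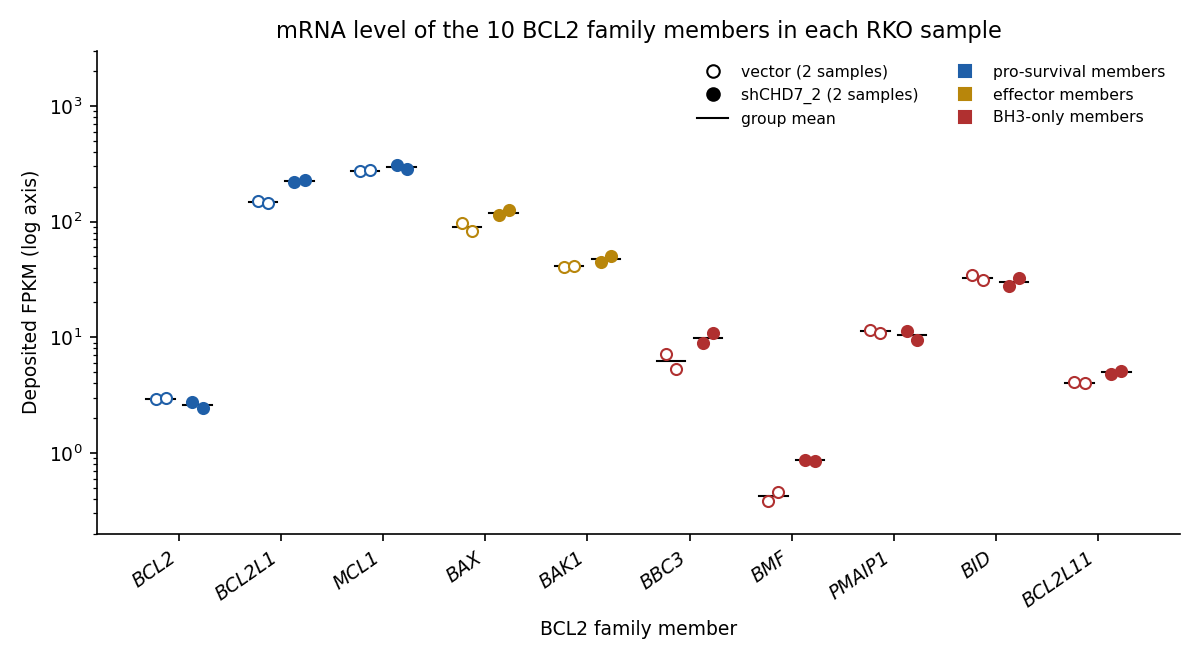
Deposited FPKM of the 10 BCL2 family members on a log axis, with open circles for the 2 vector samples, filled circles for the 2 shCHD7_2 samples, black lines for group means and colours for the classes. The levels span from 0.38 FPKM for BMF to 308.5 FPKM for MCL1. The filled circles of BCL2L1, BAX, BBC3 and BMF sit above their open circles, as do those of MCL1, BAK1 and BCL2L11, which did not pass the test. Those of BCL2 sit below. In counts the groups did not overlap for 53.7% of all genes tested.

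In the quasi-likelihood test of edgeR, with p-values adjusted (Benjamini-Hochberg) over all 11955 genes, 4 of the 10 members passed an adjusted p of 0.05, all of them higher in shCHD7_2. Of all genes tested, 11.5% passed in either direction and 4.94% passed as higher. With a fold change of at least 1.5 in addition, the study's threshold, 2 members were called (BBC3 and BMF), both higher, against 2.88% of all genes called in either direction and 1.51% called higher. Both shCHD7_2 samples lay on 1 side of both vector samples for 8 members, all except PMAIP1 and BID, against 53.7% of all genes. Median log2 fold changes were 0.07 in the pro-survival class, 0.27 in the effectors and 0.25 in the BH3-only class, beside 0.00 over all genes tested. The members were chosen with earlier results of these data known, so these counts and medians carry no test of the family as a group. For a single member, an exact permutation test of 2 samples against 2 cannot give a two-sided p below 0.333.

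Among the pro-survival members, BCL2L1 rose, MCL1 showed no detectable difference, and BCL2 was lower without passing the test. BCL2L1 encodes BCL-XL, which restrains BAX and BAK1, and lies on chromosome 20 from 31664452 to 31723989 on the minus strand (GRCh38, GENCODE 29). It had 150.57 and 143.88 FPKM in the vector samples and 218.18 and 231.12 FPKM in the shCHD7_2 samples. Both shCHD7_2 samples were well above both vector samples, and the gap between groups was wider than the gap within either. From 5901 and 5709 reads against 8480 and 8993, the fold change was 1.47 (95% interval 1.33 to 1.63, log2 fold change 0.56 ± 0.072 SE, adjusted p = 1.3e-05 by edgeR). BCL2L1 had the smallest adjusted p of the 10 members, yet its estimate fell just under 1.5-fold and it was not called. It passed the fold threshold as well without vector replicate 1 (log2 fold change 0.59) or without shCHD7_2 replicate 1 (0.60). An antisense gene, ABALON, overlaps 1424 exonic bases of BCL2L1 in GENCODE 29 and was not matched by symbol in the tables. Whether the counting used strand is not given in the sources used here, so reads from the pair cannot be told apart. The long and short splice forms of BCL2L1, which have opposite roles in apoptosis, are not separated by gene-level counts either.

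MCL1, a short-lived pro-survival protein that binds BAK1, was the most abundant member in every sample. It had 273.49 and 278.81 FPKM in the vector samples and 308.5 and 286.66 FPKM in the shCHD7_2 samples. The groups did not overlap, but the 2 shCHD7_2 samples differed from each other by more than the lower of them differed from the vector samples. The log2 fold change of counts was 0.07 with a 95% interval of -0.07 to 0.21 (adjusted p = 0.559 by edgeR), so a rise beyond 1.16-fold lay outside the interval.

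BCL2, the founding member, was the scarcest of the 3 pro-survival members. It had 202 and 211 reads in the vector samples and 169 and 148 in the shCHD7_2 samples, and the groups did not overlap. The log2 fold change of counts was -0.41 ± 0.14 SE, with a 95% interval of -0.70 to -0.12 and an adjusted p of 0.06 by edgeR. Without shCHD7_2 replicate 1 it passed, with a log2 fold change of -0.51 and an adjusted p of 0.0335, and over all 4 samples it passed with edgeR's exact test (adjusted p = 0.0477). These were the 2 of 14 alternatives in which BCL2 passed. On the FPKM scale the difference was smaller, at 2.92 and 2.98 FPKM in the vector samples and 2.75 and 2.46 FPKM in the shCHD7_2 samples, a log2 difference of -0.18 with a pseudocount of 0.1 FPKM (adjusted p = 0.492 by limma).

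The count and FPKM of a gene together give the effective transcript length that the quantification assigned to it, which can differ between samples when reads are assigned to other isoforms. For BCL2 this implied length was 4397 and 4406 bases in the vector samples and 3902 and 3815 bases in the shCHD7_2 samples. It was shorter in both shCHD7_2 samples, a log2 change of -0.19, and 0.594% of the 10781 genes compared had a larger change in either direction. In BCL2L1, MCL1, BAX, BAK1, BBC3, PMAIP1, BID and BCL2L11 the log2 change of implied length was between -0.01 and 0.01. BMF, under 1 FPKM, was not computed. Whether a different mix of BCL2 isoforms or the assignment of few reads set this value was not tested.

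**Figure D2:**
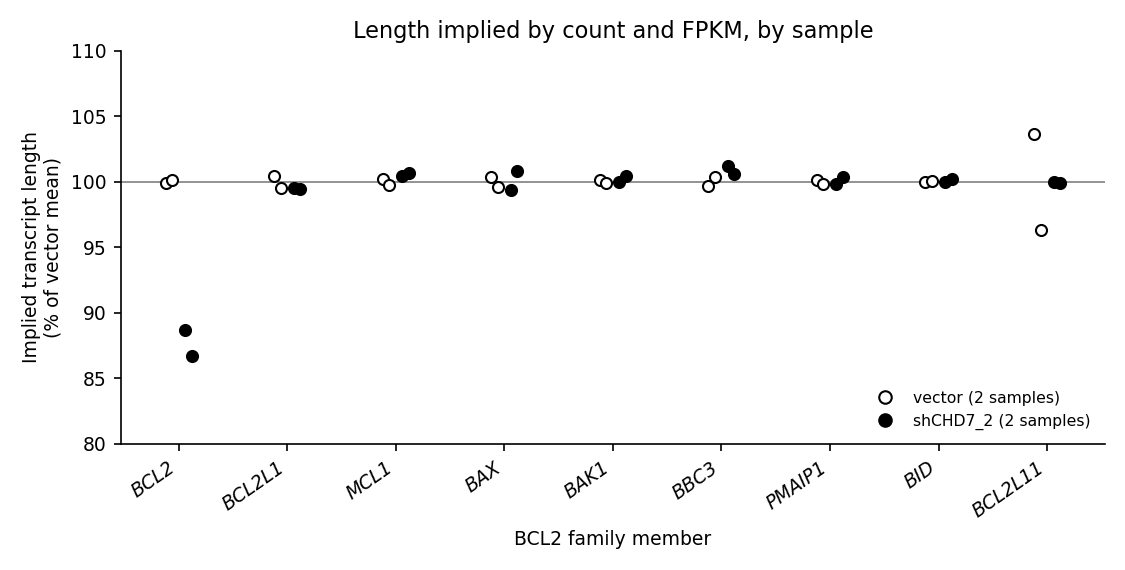
Transcript length implied by count and FPKM in each sample, as a percent of the mean of the 2 vector samples, for the 9 members at or above 1 FPKM, with open circles for vector and filled circles for shCHD7_2. BCL2 stands apart with both filled circles (3902 and 3815 bases) well below its open circles (4397 and 4406 bases), whereas the 2 vector samples of BCL2L11 lie on either side of its shCHD7_2 samples.

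Of the effectors, BAX rose and BAK1 did not pass the test. BAX, which moves from the cytosol to mitochondria when activated, lies on chromosome 19 from 48954815 to 48961798 on the plus strand. It had 96.61 and 82.65 FPKM in the vector samples and 113.29 and 125.02 FPKM in the shCHD7_2 samples. Both shCHD7_2 samples were higher, although the vector samples differed from each other nearly as much as the closest samples of the groups did. From 1030 and 894 reads against 1198 and 1342, the fold change was 1.29 (95% interval 1.13 to 1.48, adjusted p = 0.0116 by edgeR), which did not reach 1.5-fold. The adjusted p was 0.316 without vector replicate 2, 0.0661 without shCHD7_2 replicate 2, and 0.0539 with the replicate number as a block. BAX is the member whose 250 bases before the start held 4 E-boxes.

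BAK1, which sits in the mitochondrial membrane before activation, had 40.72 and 41.67 FPKM in the vector samples and 44.92 and 50.78 FPKM in the shCHD7_2 samples. The groups did not overlap, and most of the distance came from shCHD7_2 replicate 2. The log2 fold change was 0.18 ± 0.087 SE (adjusted p = 0.207 by edgeR). BAK1 drew more reads than BAX in every sample (1302 to 1633 against 894 to 1342), but per length BAX was higher, with a BAX to BAK1 ratio of FPKM of 2.37 and 1.98 in the vector samples and 2.52 and 2.46 in the shCHD7_2 samples. The implied lengths behind that exchange were 671 to 681 bases for BAX and 2028 to 2039 bases for BAK1.

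The BH3-only members split, with BBC3 and BMF called higher and PMAIP1, BID and BCL2L11 not passing the test. BBC3 encodes PUMA, which binds all the main pro-survival proteins, and lies on chromosome 19 from 47220822 to 47232766 on the minus strand. It had 165 and 126 reads in the vector samples and 208 and 252 in the shCHD7_2 samples, or 7.2 and 5.35 FPKM against 8.93 and 10.87 FPKM. The highest vector sample stayed below the lowest shCHD7_2 sample, but both groups were spread. The fold change was 1.55 (95% interval 1.24 to 1.93, adjusted p = 0.00955 by edgeR), and the lower end of the interval lay under the 1.5-fold threshold. The call was lost without vector replicate 2 (log2 fold change 0.44, adjusted p = 0.203), without shCHD7_2 replicate 2 (0.48, adjusted p = 0.06) and with DESeq2 (adjusted p = 0.0599).

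BMF, a BH3-only protein held on the cytoskeleton through a dynein light chain, was the scarcest member and the one with the largest fold change. It lies on chromosome 15 from 40087890 to 40108892 on the minus strand. The reads numbered 27 and 33 in the vector samples and 62 and 59 in the shCHD7_2 samples. The 2 samples within each group lay close together and the groups were far apart, but the FPKM never exceeded 0.87. The fold change was 1.97 (95% interval 1.39 to 2.78, adjusted p = 0.00906 by edgeR). The call was lost without vector replicate 1 (log2 fold change 0.85, adjusted p = 0.0861) and with DESeq2 (adjusted p = 0.143). In GENCODE 29 the antisense gene BMF-AS1 overlaps 461 exonic bases of BMF, and it too was not matched by symbol in the tables, so a share of these few reads could belong to it.

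PMAIP1, which encodes NOXA, a selective partner of MCL1, had 326 and 309 reads in the vector samples and 316 and 264 in the shCHD7_2 samples. The groups overlapped, and the log2 fold change was -0.16 with a 95% interval of -0.41 to 0.09 (adjusted p = 0.429 by edgeR). A rise of the size seen for BBC3 was thus outside the interval of PMAIP1. The BBC3 to PMAIP1 ratio of FPKM was 0.617 and 0.493 in the vector samples and 0.788 and 1.16 in the shCHD7_2 samples, so BBC3 exceeded PMAIP1 in shCHD7_2 replicate 2 alone.

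BID, which links death receptor signalling to mitochondria after cleavage by caspase 8, was the most abundant BH3-only mRNA, at 34.5 and 31.09 FPKM in the vector samples and 27.83 and 32.35 FPKM in the shCHD7_2 samples. Its groups overlapped, and the log2 fold change was -0.17 (95% interval -0.36 to 0.03, adjusted p = 0.282 by edgeR). BCL2L11, which encodes BIM, a strong activator of BAX, had 310 and 287 reads in the vector samples and 354 and 371 in the shCHD7_2 samples. The groups did not overlap, but the log2 fold change of 0.25 (95% interval 0.02 to 0.48) did not pass (adjusted p = 0.159 by edgeR). The lincRNA gene MIR4435-2HG, on the opposite strand, overlaps 727 exonic bases of BCL2L11.

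Summed by class, the pro-survival and effector mRNAs were higher after CHD7 knockdown and the BH3-only sum was not. The FPKM were summed without the TMM scaling of the main test, whose factors were 0.987 and 0.9828 (vector) and 1.019 and 1.012 (shCHD7_2). This places shCHD7_2 slightly higher than in the main test: the log2 difference of MCL1 was 0.11 by limma on log2(FPKM + 1), against 0.07. The pro-survival members summed to 427 and 426 FPKM in the vector samples and 529 and 520.2 FPKM in the shCHD7_2 samples, a ratio of group means of 1.23. The effectors summed to 137 and 124 FPKM against 158 and 176 FPKM, a ratio of 1.28. In both classes the shCHD7_2 samples lay above both vector samples, and a single gene, BCL2L1 or BAX, made up most of the difference. The BH3-only members summed to 57.8 and 51.8 FPKM against 53.8 and 58.5 FPKM, with overlapping groups and a ratio of 1.03. The sum is mostly BID, which held 59.6% and 60.1% of it in the vector samples and 51.7% and 55.3% in the shCHD7_2 samples. Without BID the BH3-only sums were 23.3 and 20.7 FPKM against 26 and 26.2 FPKM, a ratio of 1.19 with no overlap.

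**Figure D3:**
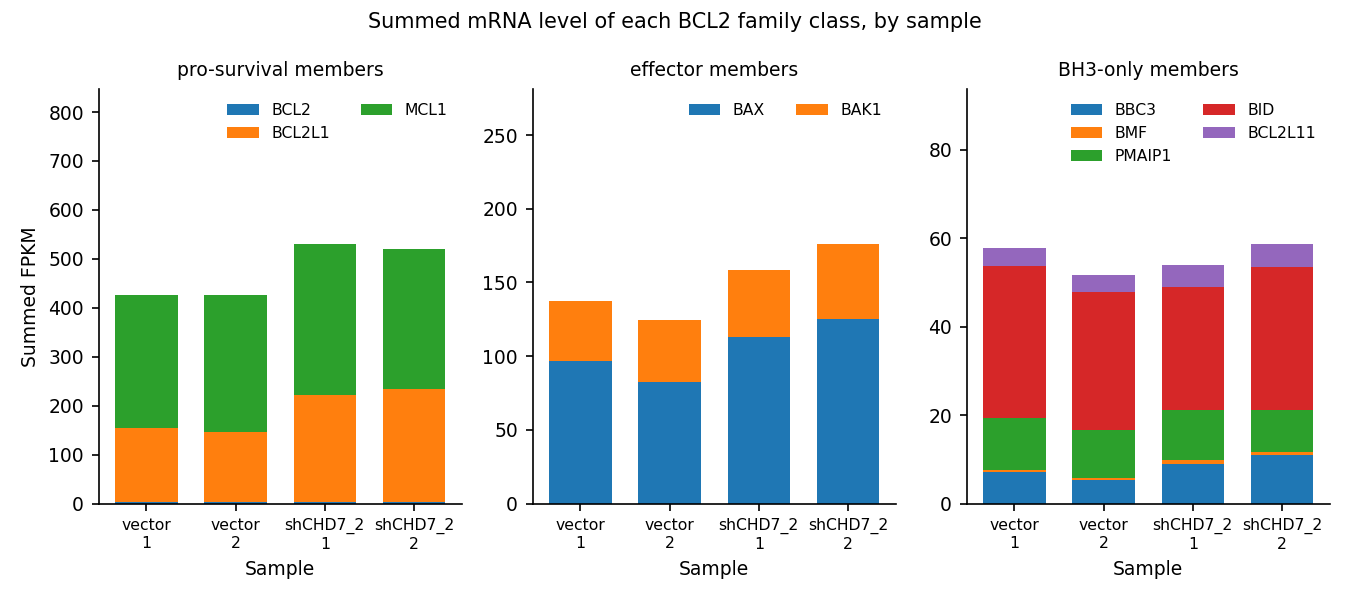
Summed FPKM of the pro-survival (left), effector (middle) and BH3-only (right) members in each of the 4 samples, with bar segments for the genes and a separate vertical axis from 0 for each class. The pro-survival bars rise from 427 and 426 to 529 and 520.2 FPKM through the BCL2L1 segment, whereas the BH3-only bars stay between 51.8 and 58.5 FPKM.

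The balance between classes therefore depended on which quantity was read. By fold change the 2 largest values belonged to BH3-only genes, BMF and BBC3. By level per length, the BH3-only share of the 10 members was 9.3% and 8.6% in the vector samples and 7.26% and 7.76% in the shCHD7_2 samples, lower in both. The ratio of pro-survival to BH3-only FPKM was 7.38 and 8.23 in the vector samples and 9.84 and 8.89 in the shCHD7_2 samples, also without overlap. That separation was lost with the homologues BCL2A1, BCL2L2, BAD, BIK and HRK included, at 6.59 and 7.66 in the vector samples and 8.57 and 7.45 in the shCHD7_2 samples. Pairs of members showed how their levels compared. BCL2L1 exceeded BBC3 by 20.9 and 26.9 times in the vector samples and by 24.4 and 21.3 times in the shCHD7_2 samples, so the groups overlapped. It exceeded BMF by 396 and 313 times in the vector samples and by 251 and 272 times in the shCHD7_2 samples, lower in both. BCL2L1 relative to MCL1 was at 0.551 and 0.516 in the vector samples and at 0.707 and 0.806 in the shCHD7_2 samples. BCL2L1 thereby made up 35.3% and 33.8% of the pro-survival sum in vector and 41.2% and 44.4% in shCHD7_2. These sums and ratios are descriptions of mRNA with no test, and protein levels were not part of these data.

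The 13 genes called other homologues here include 6 listed only as BCL2-related proteins, such as BNIP3L and BCL2L12. Of the 13, 10 were tested and 3 passed the adjusted p, all 3 lower in shCHD7_2. Of all genes tested 6.54% passed as lower, and no test compared the homologues with the members. The median log2 fold change over the 10 was -0.19. BCL2A1, a pro-survival homologue known as an NF-kB target, fell from 165.71 and 170.63 FPKM in the vector samples to 126.37 and 128.7 FPKM in the shCHD7_2 samples. The groups were far apart relative to their spread, and the log2 fold change was -0.44 ± 0.08 SE (adjusted p = 7.5e-04 by edgeR). In the vector samples BCL2A1 stood above BCL2L1 per length, and in the shCHD7_2 samples below it. With BCL2A1 and BCL2L2 added, the pro-survival sum was 610.0 and 614 FPKM in the vector samples and 673 and 666 FPKM in the shCHD7_2 samples, so the ratio of group means was 1.09 in place of 1.23.

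BCL2L12, a more distant homologue, fell by 0.38 on the log2 scale (adjusted p = 0.0155 by edgeR), but did not pass with DESeq2, without the filter on low counts or with limma on log2(FPKM + 1). BNIP3L, a mitophagy receptor also called NIX, fell by 0.34 (adjusted p = 0.0069 by edgeR). The other 7 homologues tested did not pass: log2 fold changes were -0.06 for BCL2L2 (BCL-W), 0.04 for the effector BOK, -0.21 for BAD, -0.13 for BIK, -0.25 for HRK, 0.21 for BCL2L13 and -0.17 for BCL2L15. BCL2L10, BCL2L14 and BNIP3 were too low to test, with at most 10 reads in any sample. Adding BAD, BIK and HRK to the BH3-only sum gave 92.6 and 80.1 FPKM in the vector samples and 78.5 and 89.4 FPKM in the shCHD7_2 samples, with overlapping groups.

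Of 61 genes in the pathway lists, homologues included, 60 were matched and 55 tested, with a median log2 fold change of -0.02. By edgeR 7 passed the adjusted p, 1 higher and 6 lower, beside 11.5% of all genes (4.94% higher and 6.54% lower). Of these 7, 0 reached 1.5-fold as well, although 13 of the 55 tested had an unadjusted p under 0.05 by edgeR. DESeq2 and limma on log2(FPKM + 1) also called 0 of the pathway genes, with 9 and 18 at an unadjusted p under 0.05. The share of all genes at that unadjusted level is not given here, so these counts have no background. The adjusted p was passed by 4 genes with DESeq2 (ATF4, BCL2A1, BNIP3L and TPT1), by 4 with that limma fit (PPIF in place of TPT1) and by BCL2A1 alone with edgeR without the filter on low counts.

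**Figure D4:**
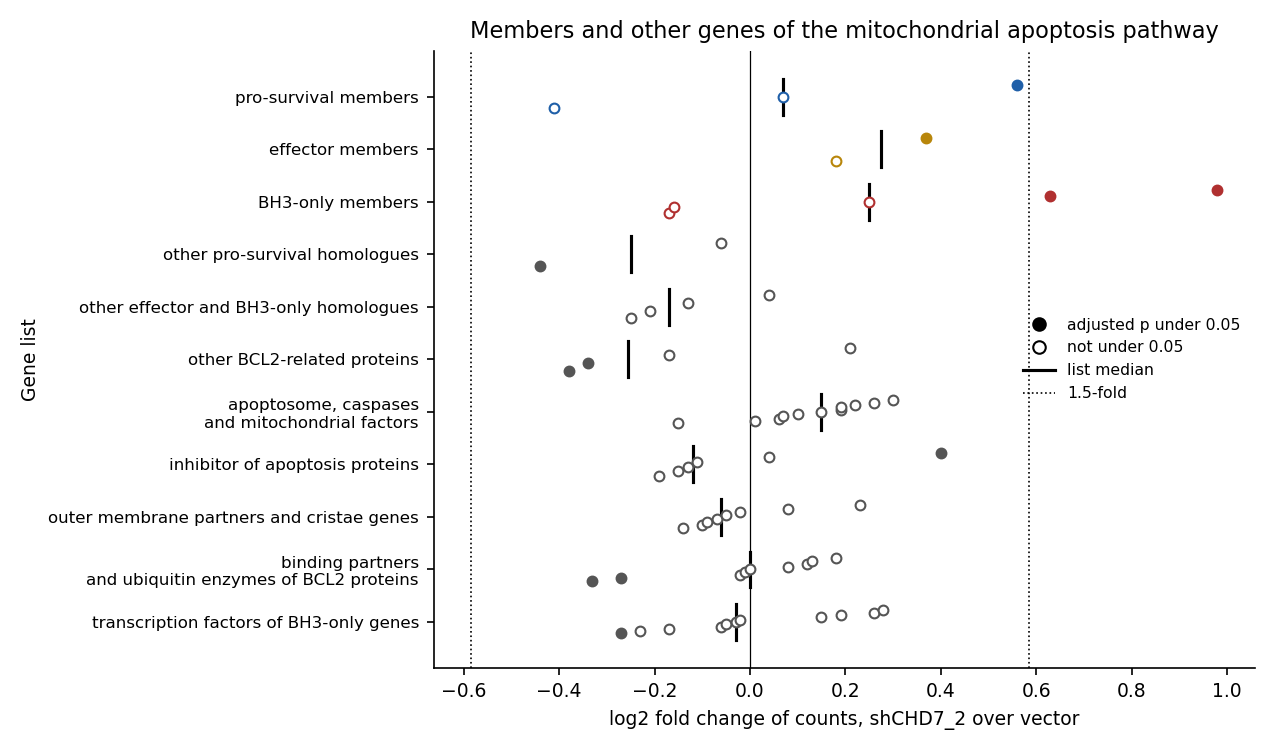
log2 fold change of counts (shCHD7_2 over vector, edgeR) for the tested genes of each class and pathway list, with filled points for an adjusted p under 0.05, thick ticks for list medians and dotted lines at 1.5-fold. Only BBC3 and BMF lie beyond a dotted line, and BCL2A1 at -0.44 is the lowest point.

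Downstream of BAX and BAK1, the 11 genes reported here for the apoptosome, caspases and released mitochondrial factors all missed the adjusted p, with log2 fold changes from -0.15 to 0.30. By direction 10 were higher in shCHD7_2 and 1, DIABLO, was lower, beside 5993 higher and 5962 lower of all genes tested. The 3 most abundant genes of the list had values of 0.10 for AIFM1, 0.07 for CYCS, which encodes cytochrome c, and -0.15 for DIABLO. The list median was 0.15.

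Among inhibitor of apoptosis proteins, 1 of 6 tested passed. BIRC3 (cIAP2) rose by a log2 fold change of 0.40 (adjusted p = 0.0164 by edgeR), from 289 and 307 reads to 404 and 398. It did not pass with DESeq2, without the filter or with limma. The most abundant, BIRC2, BIRC5 (survivin) and BIRC6, had log2 fold changes of -0.15, -0.13 and -0.11 and did not pass. The 8 genes for outer membrane partners and cristae all missed the adjusted p, with values of -0.05, -0.14 and -0.10 for the channels VDAC1, VDAC2 and VDAC3. The nearest was PPIF, the cyclophilin of the mitochondrial matrix, with a log2 fold change of 0.23 (adjusted p = 0.0526 by edgeR).

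Of 9 tested binding partners and ubiquitin enzymes, TPT1 and BAG1 fell and 7 did not pass. TPT1, a binding partner of MCL1, had a log2 fold change of -0.27 (adjusted p = 0.0115 by edgeR), although TPT1 has many processed pseudogenes that could share its reads. BAG1, a BCL2-binding chaperone cofactor, had -0.33 (adjusted p = 0.0238 by edgeR) and likewise did not pass in those 3 alternatives. DYNLL1, a dynein light chain, and BAG6 had 0.08 and -0.02 and did not pass. Among 11 transcription factors known to act on BH3-only genes, ATF4 fell by 0.27 on the log2 scale (adjusted p = 0.0129 by edgeR), from 543.33 and 518.95 FPKM to 440.79 and 461.76 FPKM. The other 10 did not pass, JUN (-0.06) and MYC (-0.03) among them. BIRC3, BAG1 and PPIF fall outside the rule for naming genes and were named after their values were seen.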

How the data were processed

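RNA from 4 RKO samples (2 vector, 2 shCHD7_2) was sequenced after oligo-dT selection. The submitters' processing notes name Bowtie2, RSEM, DESeq2 and hg38, with no versions or roles. The authors deposited estimated counts per gene, 13.6% to 14.7% of them not whole numbers, and FPKM values per gene. The counts of all 10 members were whole. Here, estimated counts were rounded and tested with edgeR 4.0.16 (R 4.3.3; filterByExpr, TMM scaling, quasi-likelihood test, Benjamini-Hochberg adjustment). Calls needed an adjusted p under 0.05 together with a change of 1.5-fold or more, and "passed" refers to the adjusted p alone. FPKM values were used for levels per length and with limma 3.58.1 on log2(FPKM + 1) or log2(FPKM + 0.1), at a mean of at least 1 FPKM; DESeq2 1.42.0 was another alternative. Fits were tested on simulated data whose changes were larger than those of any member, so that test does not cover changes of the members' size. Members and gene lists were chosen with earlier results of these data known. Members, all BCL2 homologues, called genes of the lists and the 3 most abundant genes of each list were named. The replicates of a group differed by more than counting noise, with a chi-square per gene of 3.97 (vector) and 6.07 (shCHD7_2). The implied length is the count divided by the FPKM and the summed counts of the sample. MARCHF5 was not matched, since the tables hold date-like symbols. The total counts per sample were alike, and each interval covers only these samples. A gene of the pathway lists is not reported here and was left out of their counts.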

Additional observations from a re-analysis of the deposited data

How the results depend on the processing

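No member changed sign in the alternatives that gave it a fold change (14 for each member, 12 for BMF). Calls moved more. Of the 10 members, 0 were called with DESeq2 and 0 without a filter on low counts, by edgeR or by limma on log2(FPKM + 1). The unadjusted p was under 0.05 for 5 members with DESeq2 and for 6 in each of those fits without a filter. The share of all genes at that level is not given here, so these counts of members have no background. Without a fold threshold 4 passed, and leaving out 1 sample at a time gave 1 to 3 (1 without vector replicate 2 or without shCHD7_2 replicate 2). Over all genes, 141 were called without a filter on low counts, 221 with DESeq2, 172 with limma on log2(FPKM + 1), 23 with limma without a filter, 1373 without a fold threshold, and 308 to 380 on leaving out 1 sample. The BH3-only median was 0.06 with limma on log2(FPKM + 1) and 0.08 on log2(FPKM + 0.1), where BMF was filtered out. Leaving out 1 sample gave medians of 0.02 to 0.12 (pro-survival), 0.18 to 0.36 (effector) and 0.18 to 0.32 (BH3-only). BCL2L1 passed the adjusted p in 13 of 14 alternatives (called in 5), BAX in 9 of 14, BBC3 in 9 of 14 and BMF in 8 of 12. Apart from the settings whose construction removed genes or samples, the cause was not tested. Same-numbered samples did not deviate together (correlation -0.198), so the numbers were not taken as pairs. Blocking on the replicate number called 329 genes and 2 members, and with crossed pairing, chosen after seeing the data, 423 genes and 2 members. BMF had at most 62 reads per sample. The effect of depth was not tested.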

Other observations

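The 3′ UTRs of the members were searched for 3 words of 7 bases (AGCTATT as well as GAAGCTA and the word GCTATTA), which an earlier look at these data had picked as common among genes lower in shCHD7_2. The words are therefore no independent measure of direction. In GENCODE 29 at least 1 word was present in 22.3% of the 11693 genes tested that have an annotated 3′ UTR. Of the 10 members 5 held a word: MCL1 held all 3, BCL2, BAK1 and PMAIP1 held AGCTATT, and BID held GAAGCTA. BCL2L1, BAX, BBC3, BMF and BCL2L11 held none. The annotated 3′ UTR ran from 701 bases for BAX to 5279 bases for BCL2. In genes whose 3′ UTR was about as long, the share with a word was 57.7% for BCL2, 34.6% for MCL1, 51% for BCL2L11, 45.3% for BMF, 19.6% for BCL2L1, 12.1% for BBC3 and 8.12% for BAX, and between 18.9% and 20.2% for BAK1, PMAIP1 and BID.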
